A study of Mus musculus with 16 samples.

Results

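The 9 genes followed here lie at human risk loci for Alzheimer disease and were read in nuclei of the mouse hippocampus: Bin1, Picalm, Sorl1, Abca7, Plcg2, Cd2ap, Ptk2b, Spi1 and Cd33. They were chosen by symbol from the 32285 genes in the files, and each of the 9 matched exactly 1 gene identifier. Single-nucleus RNA sequencing had been done on 16 female mice aged 9 months, 4 in each of 4 groups that combine 2 labelled genotypes. Mice were Ch25h+/+ or had lost the gene (Ch25h-/-), and within each were labelled Tau- or Tau+. Ch25h encodes cholesterol 25-hydroxylase, which makes 25-hydroxycholesterol. The labels do not name the tau line, its promoter or the cells that express it, and give no batch. They do not say whether the Ch25h deletion is carried by all cells.

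Risk genes of this kind are usually sorted by what their proteins do. Bin1, Picalm, Cd2ap and Sorl1 act in membrane bending, endocytosis and the sorting of cargo, including the amyloid precursor protein. Spi1, Cd33, Plcg2 and Abca7 are mostly discussed through myeloid cells and lipid handling, and Ptk2b through synaptic kinase signalling.

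Spi1 encodes PU.1, the transcription factor that directs the development and identity of microglia, and Cd33 encodes a sialic acid receptor. The windows at the start sites of Cd33, Picalm and Plcg2 are shown as examples of genes highest in microglia among the 9 classes tested, 2 with the run of letters described next and 1 without it. They come from the RefSeq table (GRCm38.p6), which had an entry used here for 6 of the 9 genes. Each is 300 bases long, 250 before and 50 after the start, written 5′ to 3′ on the gene's strand. Capitals mark the purine-rich run GAGGAAG, the core of many PU.1 sites, or its reverse complement. It was found once each in the windows of Cd33 and Picalm, and not in those of Plcg2, Sorl1, Abca7 and Cd2ap. Of the 32851 windows of the table, 13.6% held it. A match in the letters is a description only, and no match in this window says nothing about the factor.
Cd33, chr7:43533122-43533421, minus strand: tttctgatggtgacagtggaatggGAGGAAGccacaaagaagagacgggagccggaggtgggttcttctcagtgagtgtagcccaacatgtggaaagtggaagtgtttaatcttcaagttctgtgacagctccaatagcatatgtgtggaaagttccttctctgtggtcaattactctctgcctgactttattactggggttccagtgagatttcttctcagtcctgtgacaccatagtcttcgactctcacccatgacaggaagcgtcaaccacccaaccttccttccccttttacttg
Picalm, chr7:90129963-90130262, plus strand: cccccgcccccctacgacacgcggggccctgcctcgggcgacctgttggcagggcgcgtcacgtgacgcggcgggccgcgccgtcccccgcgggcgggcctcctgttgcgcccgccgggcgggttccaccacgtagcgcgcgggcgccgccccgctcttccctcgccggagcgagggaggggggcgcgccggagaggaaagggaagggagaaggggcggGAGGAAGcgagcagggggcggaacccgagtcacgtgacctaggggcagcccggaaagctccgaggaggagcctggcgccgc
Plcg2, chr8:117498025-117498324, plus strand: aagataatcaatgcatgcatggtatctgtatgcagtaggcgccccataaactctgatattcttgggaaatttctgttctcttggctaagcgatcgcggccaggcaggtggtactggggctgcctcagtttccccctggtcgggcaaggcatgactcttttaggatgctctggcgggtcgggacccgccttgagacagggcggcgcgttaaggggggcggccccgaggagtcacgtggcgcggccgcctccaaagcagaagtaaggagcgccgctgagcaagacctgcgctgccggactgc

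In the GENCODE M21 annotation of GRCm38, Spi1 lies on chromosome 2 (91082390 to 91115756, plus strand) and Cd33 on chromosome 7 (43524216 to 43544428, minus strand). The Cd33 window above lies inside that span, since the RefSeq start it is built on is not the outermost start of the GENCODE gene. Picalm lies on chromosome 7 (90130213 to 90213465, plus strand), Plcg2 on chromosome 8 (117498291 to 117635142, plus strand) and Abca7 on chromosome 10 (79996494 to 80015572, plus strand). Sorl1 is on chromosome 9 (41964720 to 42124297, minus strand), Cd2ap on chromosome 17 (42792951 to 42876665, minus strand) and Ptk2b on chromosome 14 (66153257 to 66281052, minus strand). Bin1 is on chromosome 18 (32377230 to 32435737, plus strand). All are protein-coding. Bin1 overlaps the listed gene A830052D11Rik and Sorl1 overlaps Gm16214. Whether the counting used strand is not given in the sources used here, and how reads of these overlapping pairs were assigned was not checked.

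The libraries held 51270831 to 84870650 unique molecular identifiers (UMIs, 1 per captured transcript) each. After the removal of 11045 nuclei with the highest doublet scores, a number set by an assumed rate, 136828 nuclei remained (7601 to 10567 per library). Markers named 16 classes, which held 123635 of them. Of these classes, 9 had at least 20 nuclei in every library and were tested. Summed markers of microglia were at 8370 to 12570 CPM (the usual scaled share of the UMIs of a class in 1 library) in the microglial sums and at most 180 CPM in any other tested class. Neuronal classes stood closer to others, with inhibitory markers at 7044 to 10302 CPM against up to 6039 CPM elsewhere, those of other excitatory neurons at 3423 to 4686 against 3030, of CA1 at 884 to 1235 against 588 and of DG granule neurons at 1469 to 1876 against 749. Ch25h itself gave 8 to 36 UMIs in each Ch25h+/+ library and 10 to 30 in each Ch25h-/- library, so its transcript did not separate the labelled genotypes, and whether its counted 3′ end lies in the deleted part is not given. Mapt, which encodes tau, was at 387 to 443 CPM in Ch25h+/+ Tau- and 380 to 465 CPM in Ch25h+/+ Tau+ libraries, with overlap. In Ch25h-/- it was at 348 to 378 CPM in Tau- and 421 to 506 CPM in Tau+ libraries, with no overlap. Libraries shared 0.119 to 0.465% of their nuclear barcodes. The first principal component of the deviations from the group means (25.3% of their variance) put replicates 1 and 2 of every group on one side, called side A, and replicates 3 and 4 on the other, side B. Results that rest on this split are given for both sides. The sides were drawn from these same counts, so a smaller p with the split as a block is not independent support.

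Of the 9 tested classes, microglia held nearly all Spi1 and Cd33. Spi1 was at 253 to 390 CPM in microglia (293 ± 36.5, SD, n = 16) and at most 0.29 CPM on average in each of the 8 other tested classes. Cd33 was at 210 to 384 CPM in microglia (297 ± 44.0, SD, n = 16) and at most 0.34 CPM on average in the other 8. Microglia held 1.30% of the UMIs of named nuclei, but 92.5% of those of Spi1 and 92.0% of those of Cd33. Border-associated macrophages, with 6 to 59 nuclei per library, gave 198 CPM of Spi1 (95% Poisson interval 164.5 to 237, pooled over libraries) and 203 CPM of Cd33 (169 to 243). These intervals cover counting error only. The profile of barcodes under 100 UMIs, taken as free RNA, could account for 0.0693% of the microglial Spi1 level and 0.118% of the Cd33 level, and for 50.5% or more of the Cd33 level in each of the 8 other tested classes. For Spi1 that share was 61.1% or more in 7 of these classes and 13.5% in CA3 pyramidal neurons, where 18 UMIs were counted.

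Plcg2 encodes a phospholipase that relays signals from immune receptors. Its level was 447 ± 73.0 CPM in microglia (341 to 642 over 16 libraries) and 30.4 ± 4.90 CPM in granule neurons of the dentate gyrus (DG), with no overlap of mean ± SD. Among the 9 tested classes CA3 pyramidal neurons followed at 3.56 ± 1.27 CPM, with overlap of oligodendrocyte precursors (3.44 ± 2.37) and astrocytes (3.11 ± 1.90). CA1 pyramidal neurons were lowest at 0.58 ± 0.35 CPM, and oligodendrocytes overlapped them at 0.79 ± 0.58 CPM. Free RNA, as described above, could account for 15.9% of the CA1 level and 40.0% of the oligodendrocyte level. DG granule nuclei held 45.2% of the UMIs of Plcg2 in named nuclei, more than the 42.2% in microglia, since they gave 19.9% of the UMIs of named nuclei. Of the small untested classes, border-associated macrophages gave 170 CPM (95% Poisson interval 139 to 207) and endothelial nuclei, of which there were 307, gave 109 CPM (81.7 to 143).

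Among the tested classes Picalm and Bin1 were highest in glia, although in different ones. Picalm, a clathrin adaptor of endocytosis, was at 931 ± 183 CPM in microglia and 423 ± 27.2 CPM in oligodendrocytes (SD, n = 16), and at 69.2 to 103 CPM on average in the other 7 classes. Bin1, which shapes curved membranes, was at 864 ± 102 CPM in oligodendrocytes and 686 ± 69.8 CPM in microglia. The oligodendrocyte level was higher in 15 of 16 libraries. Among the 9 tested classes CA3 pyramidal neurons came next for Bin1 at 162 ± 12.95 CPM, apart from CA1 neurons (117 ± 8.39), DG granule neurons (117 ± 9.47), inhibitory neurons (110 ± 9.06) and other excitatory neurons (108 ± 8.63), whose ranges of mean ± SD overlapped each other. Of the tested classes astrocytes were lowest for Bin1 at 25.6 ± 3.11 CPM, and free RNA could account for 43.6% of that level.

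In the same 9 classes Sorl1 and Ptk2b were highest in excitatory neurons. Sorl1, a receptor that returns cargo from endosomes, was at 227 ± 22.0 CPM in CA1, 170 ± 19.7 in DG granule neurons, 139 ± 14.1 in other excitatory neurons, 136 ± 17.2 in astrocytes and 108 ± 8.48 in CA3. CA1 stood above DG in 16 of 16 libraries, whereas other excitatory neurons and astrocytes did not differ beyond their spread. Of the tested classes oligodendrocyte precursors were lowest at 12.7 ± 3.80 CPM, of which free RNA could account for 91.0%. Ptk2b, a calcium-responsive tyrosine kinase, followed another order: 409 ± 53.2 CPM in DG granule neurons, 310 ± 21.4 in CA3, 274 ± 28.3 in CA1, 225 ± 44.0 in microglia and 148 ± 21.9 in other excitatory neurons. Its levels in oligodendrocytes (11.6 CPM), astrocytes (7.62 CPM) and precursors (5.12 CPM) were ones of which free RNA could account for 81.7 to 100%. These shares are capped at 100%. The free RNA estimate for Ptk2b was 9.97 CPM in astrocytes and 8.16 CPM in precursors, above the levels counted. It was therefore too high in these 2 classes, and free RNA shares there are upper limits.

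Cd2ap and Abca7 were spread over all 9 tested classes. Cd2ap, an adaptor that links membrane proteins to actin, was at 295 ± 53.3 CPM in microglia and at 71.3 to 134 CPM on average in the other 8, where each neighbour in the order overlapped the next within mean ± SD. In endothelial nuclei it reached 438 CPM (95% Poisson interval 381 to 501). Abca7, a lipid transporter, was at 29.1 ± 8.95 CPM in microglia, 21.9 ± 2.59 in inhibitory neurons and 20.2 ± 2.19 in other excitatory neurons, with overlap from each to the next. Among the tested classes it was lowest in astrocytes (6.83 ± 2.30 CPM) and DG granule neurons (5.35 ± 0.88 CPM). Of the untested classes, mural nuclei gave 44.1 CPM (95% Poisson interval 26.9 to 68.1), border-associated macrophages 43.0 (28.1 to 63.0) and Cajal-Retzius cells 36.6 (30.3 to 43.8). Choroid plexus nuclei gave 33.8 CPM (30.2 to 37.7) and ependymal nuclei 2.54 CPM (0.823 to 5.92).

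**Figure D1:**
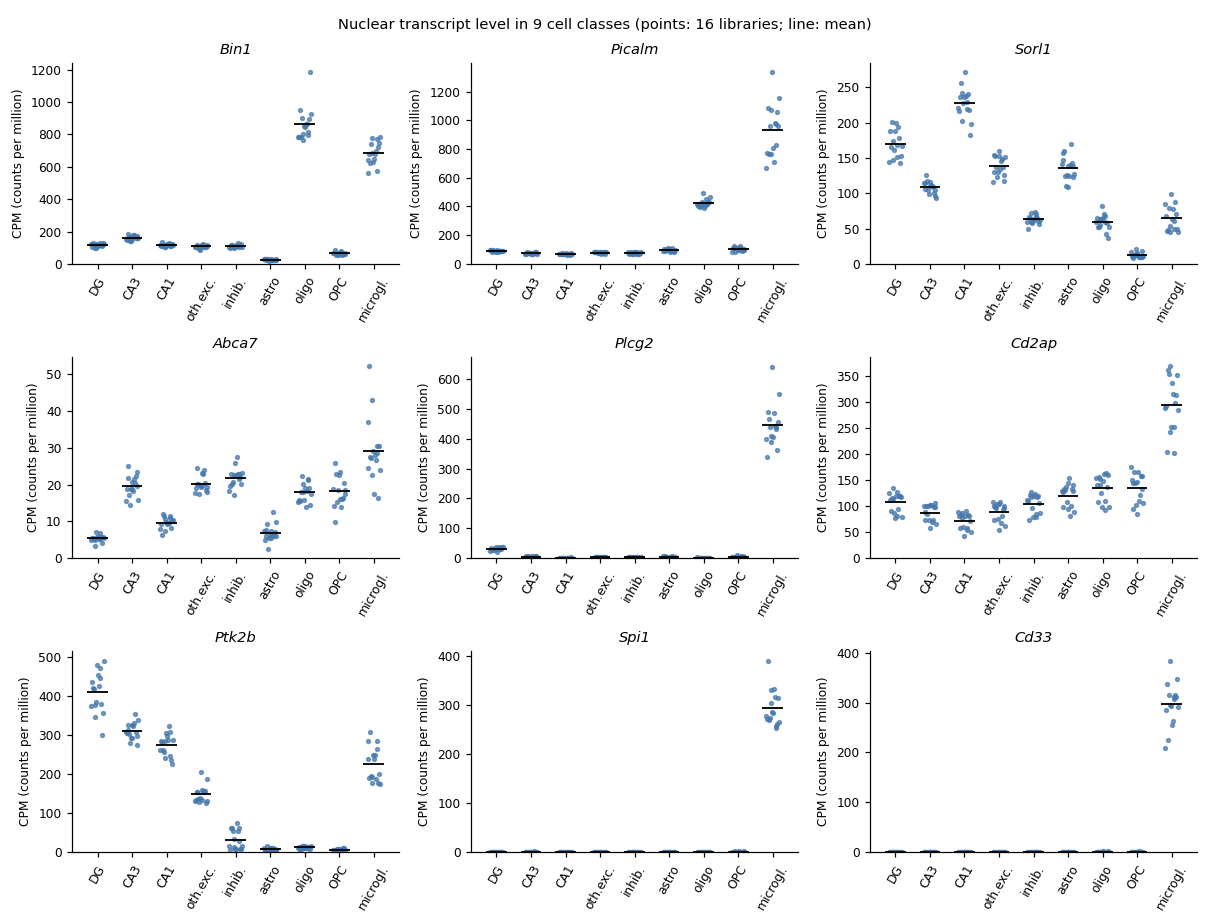
Level of each gene (CPM, linear axes from 0) in the 9 tested classes, with 1 point per library and a line at the mean of 16 libraries. Spi1 and Cd33 are near 0 outside microglia, Bin1 is highest in oligodendrocytes, Sorl1 in CA1 and Ptk2b in DG granule neurons.

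By Pearson correlation of log2(mean CPM + 1) over the 9 classes, among 13768 genes of at least 10 CPM in 1 class or more, the genes most like Spi1 were Gm47754 (r = 0.9998) and Ccl4 (r = 0.9996), and those most like Cd33 were Adora3 and Bcl2a1b (both r = 0.9998). Plcg2 was most like Gm20089 (r = 0.98) and Cyth4 (r = 0.97), and Picalm most like Plekhj1 and Rac1 (both r = 0.99). The closest to Bin1 were Stard3nl and Rybp (both r = 0.98), to Cd2ap Taok2 and Pdia3 (both r = 0.99) and to Ptk2b Rnf126 (r = 0.98) and Gm11613 (r = 0.97). For Sorl1 the overlapping Gm16214 (r = 0.97) and Chst1 (r = 0.91) came first, and for Abca7 Aldh3a2 (r = 0.92) and Gm37571 (r = 0.91). The 9 points come from the same libraries and carry no p. For Spi1 and Cd33, which were near 0 outside microglia, r was set mainly by the microglial point. Pearson r also leaves out the size of a change. Rnf126 ran from 11.1 to 21.9 CPM where Ptk2b ran from 5.12 to 409 CPM, and Gm37571 ran from 9.18 to 12.4 CPM.

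The next question was whether tau or the loss of Ch25h moved these genes. Counts were summed per library and class and tested with edgeR's quasi-likelihood test over all genes, in the 9 classes and over all nuclei, with p adjusted by Benjamini-Hochberg within each class and contrast and called under 0.05. Of the 90 pairs of a gene and a unit, 69 passed the filter on low counts: Spi1 and Cd33 passed in microglia and over all nuclei, Plcg2 in 6 units, Ptk2b in 9 and the others in all 10. Averaged over both Ch25h genotypes, Tau+ against Tau- gave 3 calls in 69 tests, 2 higher and 1 lower, where 1.63% of all 138286 tests were called. All 3 lay over all nuclei or in microglia, where 4.63 and 9.05% of genes were called. At an unadjusted p under 0.05 there were 11 of 69 (15.9%), against 11.2% of all tests. DESeq2 called 5. Within Ch25h+/+ edgeR called 0 of 69 (5 at an unadjusted p under 0.05, and 1 by DESeq2), where 0.229% of all tests were called and 7.81% had an unadjusted p under 0.05. Within Ch25h-/- it called 0 of 69 (10 at an unadjusted p under 0.05, and 2 by DESeq2), where 0.254% of all tests were called and 8.39% had an unadjusted p under 0.05.

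The 2 genes called higher were Spi1 and Bin1, both over all nuclei. Of 21392 genes there, 4.63% were called in either direction and 3.27% were called higher. Spi1 was at 2.81, 2.35, 2.51 and 1.502 CPM in the Ch25h+/+ Tau- libraries and at 6.33, 4.09, 3.50 and 4.97 CPM in Ch25h+/+ Tau+. In Ch25h-/- it was at 2.48, 2.97, 1.59 and 2.52 CPM without tau and at 3.69, 6.54, 4.25 and 4.29 CPM with it. No Tau+ library overlapped a Tau- library in either genotype. The log2 fold change over both genotypes was 0.95 (SE 0.17, adjusted p = 0.00842, edgeR), and it was 0.89 on side A (adjusted p = 0.114) and 1.04 on side B (adjusted p = 0.0911) of the split, neither of which passed alone. Leaving out any 1 of the 16 libraries kept the call (adjusted p 0.00474 to 0.0214).

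Bin1 rose over all nuclei by less. It was at 160, 133, 124 and 140 CPM in Ch25h+/+ Tau- and at 152, 156, 171 and 166 CPM in Ch25h+/+ Tau+, with 1 Tau- library inside the Tau+ range. In Ch25h-/- the values were 144, 146, 137 and 134 CPM without tau and 160, 176, 184 and 173 CPM with it, with no overlap. The log2 fold change was 0.20 (SE 0.05, adjusted p = 0.0429, edgeR), with 0.08 on side A and 0.35 on side B. The call ended without each of 13 libraries (adjusted p 0.0502 to 0.0886) and was kept without Ch25h+/+ Tau- replicate 1, Ch25h-/- Tau+ replicate 1 or Ch25h-/- Tau- replicate 2 (0.0185 to 0.0432). With no filter on low counts the adjusted p was 0.0584.

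Cd33 and Picalm over all nuclei missed the threshold. Cd33 was at 3.22, 2.24, 2.999 and 1.58 CPM in Ch25h+/+ Tau- and at 5.16, 4.28, 3.15 and 3.95 CPM in Ch25h+/+ Tau+. In Ch25h-/- it was at 3.06, 3.63, 1.71 and 2.67 CPM without tau and at 3.45, 5.19, 4.07 and 4.91 CPM with it, so that 1 Tau- library lay inside the Tau+ range in each genotype. Its log2 fold change was 0.64 (SE 0.18, adjusted p = 0.0504, edgeR), and it passed by DESeq2 (adjusted p = 0.00949) and with the split as a block (adjusted p = 0.0234, edgeR). On side A alone the log2 fold change was 0.51 (adjusted p = 0.242) and on side B 0.81 (adjusted p = 0.187). Cd33 was called by edgeR without each of 4 libraries (adjusted p 0.0340 to 0.0479) and not without each of the other 12 (0.0543 to 0.107). Picalm had a mean of 102 CPM in Ch25h+/+ Tau- and 115 CPM in Ch25h+/+ Tau+, and of 100.5 and 112 CPM in the Ch25h-/- groups (log2 fold change 0.11, SE 0.04, adjusted p = 0.143, edgeR).

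The makeup of the libraries moved with these levels. Microglia were 3.56 ± 0.81% of named nuclei in Ch25h+/+ Tau- and 5.58 ± 1.66% in Ch25h+/+ Tau+, and 3.85 ± 1.17% and 5.79 ± 1.06% in the Ch25h-/- groups (SD, n = 4). Oligodendrocytes were 17.5 ± 3.09% and 20.5 ± 3.39% in the Ch25h+/+ groups and 12.2 ± 5.81% and 24.1 ± 3.24% in the Ch25h-/- groups. DG granule nuclei had lower means with tau. They were at 18.3 ± 3.61% and 14.2 ± 5.22% in Ch25h+/+, and 24.4 ± 6.2% and 14.1 ± 2.14% in Ch25h-/-. CA1 nuclei had a lower mean with tau in Ch25h+/+ and a higher one in Ch25h-/-. They ran from 3.19 to 10.5% within Ch25h-/- Tau- alone. These shares are relative, so a higher glial share does not by itself show more glial cells. Of the UMIs of all nuclei, microglia gave 0.708 and 1.49% in Ch25h+/+ and 0.786 and 1.46% in Ch25h-/-, without and with tau. Oligodendrocytes gave 4.11 and 5.82% in Ch25h+/+ and 2.78 and 6.36% in Ch25h-/-. DG granule neurons gave 16.4 and 14.6% in Ch25h+/+ and 22.3 and 14.7% in Ch25h-/-. In a level over all nuclei, more nuclei of a class and more transcripts per nucleus cannot be told apart. Each level was therefore also computed with 1 fixed share of UMIs per class in every library, a step added after the data were seen. Such a share depends on both the number of nuclei of a class and their depth. With the fixed mix, Spi1 was at 3.51 ± 0.33 and 3.75 ± 0.66 CPM in Ch25h+/+ and at 3.32 ± 0.28 and 3.66 ± 0.45 CPM in Ch25h-/-, without and with tau. Its tau difference was 0.287 CPM (exact permutation test, two-sided p = 0.22), against 2.37 CPM as measured (p = 0.00041, the smallest that 4900 arrangements within genotypes can give). Bin1 differed by 2.87 CPM with the fixed mix (same exact test, p = 0.58) against 27.7 CPM as measured (p = 0.0012). For Cd33 and Picalm the difference changed sign in the same exact test, from 1.63 CPM (p = 0.002) to -0.431 CPM (p = 0.093) and from 12.3 CPM (p = 0.00082) to -2.11 CPM (p = 0.43). These p-values are unadjusted, from 18 such tests.

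**Figure D2:**
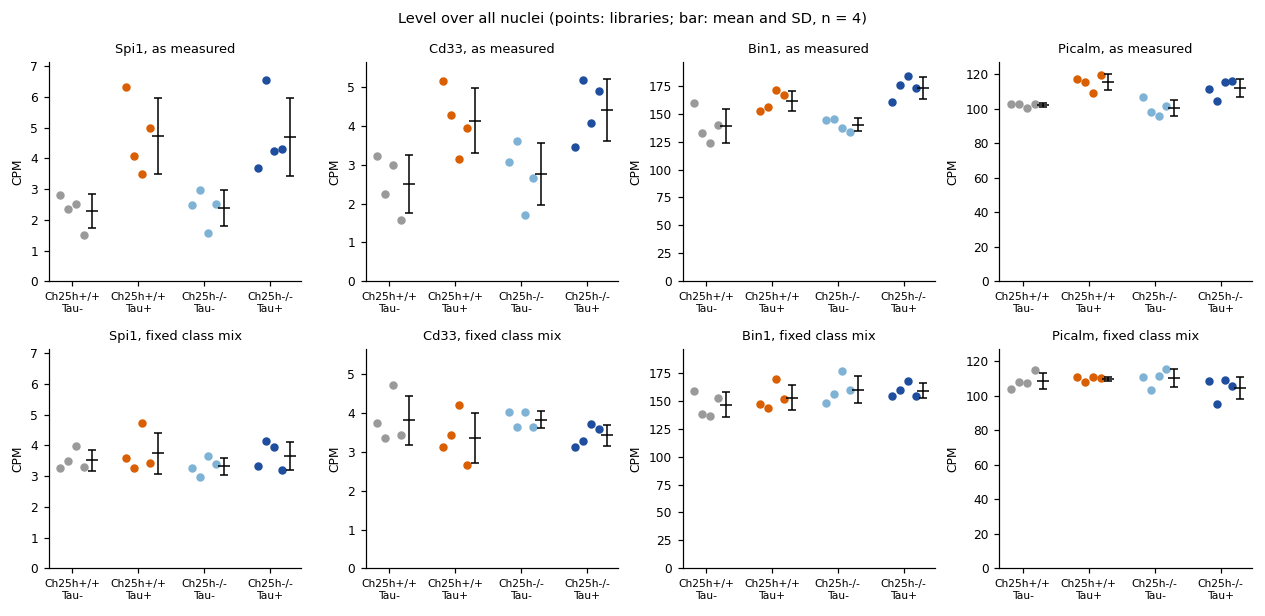
Level over all nuclei (CPM, linear axes from 0) of Spi1, Cd33, Bin1 and Picalm by group, as measured (upper row) and with 1 fixed mix of classes (lower row); points are libraries, bars the mean and SD of 4. The Tau+ libraries of Spi1, at 3.50 to 6.54 CPM as measured, lie above all Tau- libraries, at 1.502 to 2.97 CPM, and overlap them with the fixed mix.

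Within microglia, Picalm was the 1 gene of the 9 called, and it fell with tau. Of 8435 genes in microglia, 9.05% were called in either direction and 3.6% were called lower. It was at 958, 1069.5, 765 and 1335 CPM in Ch25h+/+ Tau- and at 669, 775, 1088 and 766 CPM in Ch25h+/+ Tau+. In Ch25h-/- it was at 976, 1058, 957 and 1157 CPM without tau and at 806, 709, 982 and 824 CPM with it. Replicate 3 was the highest of each Tau+ group, and the groups overlapped in both genotypes. The log2 fold change over both genotypes was -0.35 (SE 0.11, adjusted p = 0.0465, edgeR), with -0.49 on side A and -0.22 on side B. The call ended without each of 13 libraries (adjusted p 0.0519 to 0.114) and was kept without replicate 3 of Ch25h+/+ Tau+, Ch25h+/+ Tau- or Ch25h-/- Tau+ (0.00346 to 0.0176). With doublets kept the adjusted p was 0.0557.

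Bin1 and Cd33 had lower means in Tau+ microglia without passing the test. Bin1 was at 742, 778, 686 and 630 CPM in Ch25h+/+ Tau- against 562, 643, 682 and 624 CPM in Ch25h+/+ Tau+, which overlapped. In Ch25h-/- it was at 770, 723, 750 and 787 CPM against 647, 677, 699 and 573 CPM, with no overlap (log2 fold change over both genotypes -0.23, SE 0.08, adjusted p = 0.0608, edgeR). It passed without Ch25h+/+ Tau+ replicate 3, Ch25h+/+ Tau- replicate 4 or Ch25h-/- Tau+ replicate 3 (adjusted p 0.0334 to 0.0447), and with the split as a block (adjusted p = 0.0316, edgeR). On side A alone the log2 fold change was -0.28 (adjusted p = 0.0563) and on side B -0.16 (adjusted p = 0.679). Cd33 had a mean of 322 CPM without and 264 CPM with tau in Ch25h+/+, and of 316 and 284 CPM in Ch25h-/- (log2 fold change -0.25, SE 0.10, adjusted p = 0.137, edgeR). Without Ch25h+/+ Tau+ replicate 3, where Cd33 was at 338 CPM, its adjusted p was 0.0293.

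The other genes differed less from their spread in microglia. Ptk2b was at 203 ± 31.6 and 254 ± 51.5 CPM in the Ch25h+/+ groups without and with tau (log2 fold change 0.32, SE 0.17). In Ch25h-/- its log2 fold change was 0.22 (SE 0.16), and over both genotypes it was 0.27 (SE 0.12, adjusted p = 0.169, edgeR). Spi1 was at 299 ± 24.98 and 303 ± 58.5 CPM in Ch25h+/+ and at 273 ± 27.8 and 297 ± 33.1 CPM in Ch25h-/-. Its log2 fold change of 0.04 (SE 0.10, adjusted p = 0.874, edgeR) changed sign without Ch25h+/+ Tau+ replicate 3. Plcg2 (-0.11, SE 0.11), Cd2ap (-0.15, SE 0.12), Sorl1 (-0.09, SE 0.18) and Abca7 (0.10, SE 0.22) had log2 fold changes within 1.5 times their SE.

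Markers of other cells in the microglial sums were also compared. All 7 markers of border-associated macrophages gave UMIs, and together they were at 7.55 to 19.9 CPM in Ch25h+/+ Tau-, 23.8 to 71.5 in Ch25h+/+ Tau+, 0 to 31.0 in Ch25h-/- Tau- and 3.32 to 39.8 in Ch25h-/- Tau+. Of 6 lymphocyte markers Cd3e was at 0, and the sum was at 43.0 to 133, 14.3 to 74.2, 81.8 to 99.6 and 22.4 to 69.8 CPM in the same order. Of 4 neutrophil markers Ly6g was at 0, and the sum was 0 in every library but 1 Ch25h-/- Tau+ library at 28.8 CPM. Astrocyte markers (8, none at 0) had lower sums with tau, at 412 to 605 against 344 to 410 CPM in Ch25h+/+ and 455 to 589 against 351 to 468 CPM in Ch25h-/-. Oligodendrocyte markers (8, none at 0) were at 278 to 417 against 272 to 477 CPM in Ch25h+/+ and at 123 to 281 against 319 to 464 CPM in Ch25h-/-. Markers of DG granule neurons (24.0 to 78.7 CPM) and inhibitory neurons (26.5 to 112 CPM) overlapped between the groups. The part of these cells in the microglial results was not tested.

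**Figure D3:**
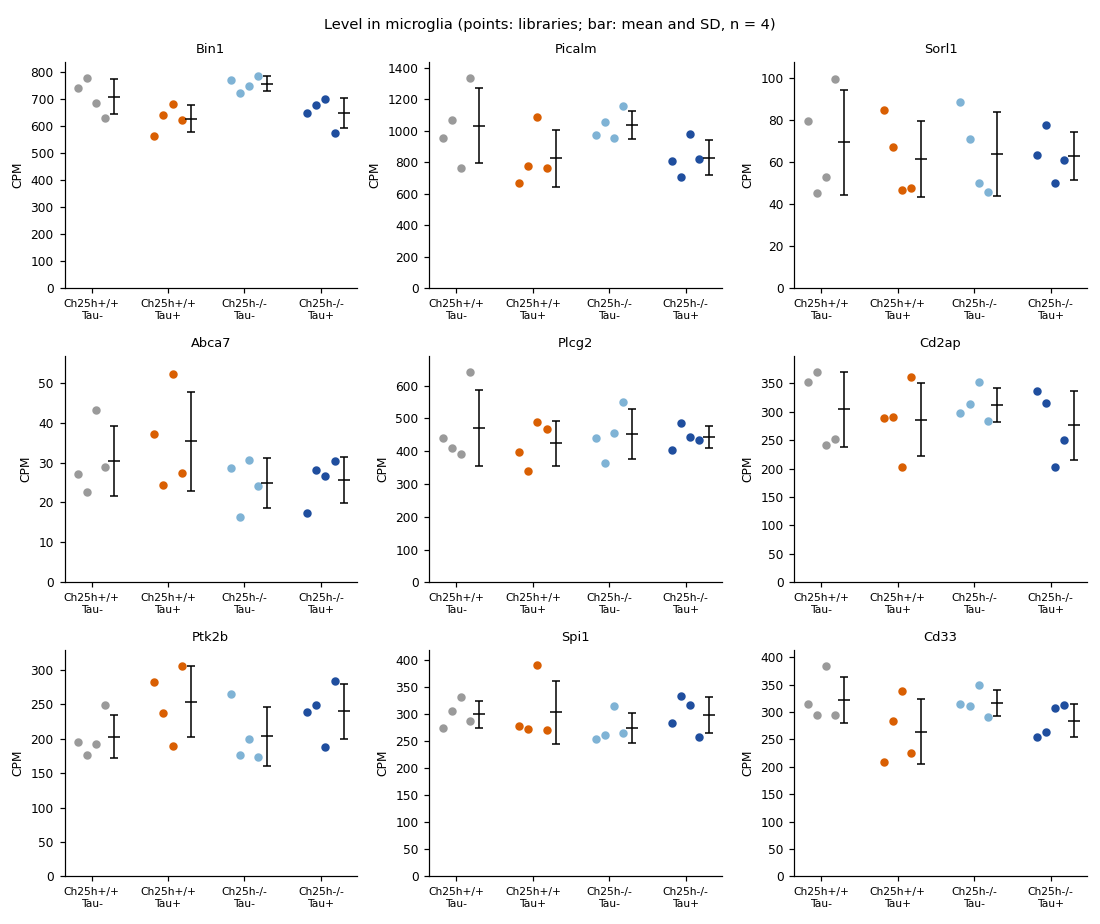
Level of the 9 genes in microglia (CPM, linear axes from 0) by group; points are libraries, bars the mean and SD of 4. The Picalm means are 1032 and 1037 CPM in the Tau- groups and 824 and 830 CPM in the Tau+ groups, with 1 high library in each Tau+ group.

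Microglia of tau mice were mixed in state, so the 9 genes were also read against transcripts that activated microglia are known to express (Apoe, Axl, Itgax, Lpl, Cst7, Csf1, Spp1, Gpnmb and Igf1). This list and its bins were chosen after the data were seen. Of 5808 microglial nuclei, 2902 had no UMI of the list, 1968 had 1 to 3 and 938 had 4 or more, with 234 nuclei at 3 UMIs and 128 at 4. Bins are ranges of a count, not cell types. Most of that count was Apoe, with 7279 of the 9061 UMIs of the list in Ch25h+/+ Tau+ and 2777 of 4147 in Ch25h-/- Tau+. In the Tau- groups Apoe gave 494 of 537 UMIs in Ch25h+/+ and 503 of 541 in Ch25h-/-. Nuclei with 4 or more were 30.4 ± 18.6% of microglia in Ch25h+/+ Tau+ (3.80 to 43.5%) and 17.5 ± 11.2% in Ch25h-/- Tau+ (3.47 to 30.9%), against 1.11 ± 1.26% and 1.22 ± 0.97% in the Tau- groups (SD, n = 4). Replicate 3 was the lowest library of both Tau+ groups. Free RNA could account for 0.182 and 0.428 UMIs of the list per nucleus in Ch25h+/+, without and with tau, of 0.471 and 5.19 counted, and for 0.272 and 0.246 of 0.453 and 2.40 in Ch25h-/-. That is 38.7 and 60.1% of the list in the Tau- groups and 8.24 and 10.3% in the Tau+ groups, so that the bin of 1 to 3 UMIs can hold nuclei with free RNA alone. The bins differed in depth, with a median of 1332 UMIs per nucleus at none and 1842 at 4 or more.

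Cd33 was lower in the nuclei with more activation transcripts. In the 6 Tau+ libraries with at least 20 nuclei in both bins it was at 280 to 340 CPM without them and at 95.4 to 243 CPM with 4 or more, lower in 6 of 6 libraries. The means were 312 ± 25.6 and 161 ± 51.5 CPM (SD, n = 6), a log2 ratio of -0.96 (exact paired sign-flip permutation test, two-sided p = 0.031, the smallest that 6 libraries allow). At 1 to 3 such UMIs Cd33 was still at 270 to 352 CPM in these libraries. Picalm was lower in 6 of 6 as well, at 864 ± 116 against 629 ± 47.1 CPM (same exact test, p = 0.031), although the exact p was 0.078 with 2 or more such UMIs as the upper bin, and 0.094 (5 of 6 libraries, -165 CPM) with 2 or more UMIs of the list without Apoe. Sorl1 was higher in 6 of 6, at 49.9 ± 18.9 against 76.6 ± 16.2 CPM (exact p = 0.031). With 2 or more UMIs as the upper bin the difference was 10.6 CPM in 8 libraries (exact p = 0.38). At 8 or more it was 32.5 CPM, higher in 5 of 6 libraries, against 26.7 CPM at 4 or more, without reaching the limit (exact p = 0.062). With the list taken without Apoe and 2 or more UMIs, both changed together, the difference was -0.811 CPM (exact p = 0.91). Free RNA could account for 22.4% of the level of Sorl1 over all microglia.

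The remaining genes did not reach that limit with 4 or more UMIs as the upper bin, and some did at other settings. Bin1 was lower in 5 of 6 libraries (685 ± 58.5 against 517 ± 78.7 CPM, exact p = 0.062), and Plcg2 in 5 of 6 (453 ± 61.8 against 378 ± 67.1 CPM, p = 0.094). Ptk2b was higher in 5 of 6 (236 ± 39.9 against 307 ± 50.9 CPM, exact p = 0.062). Spi1 was at 305 ± 43.7 against 275 ± 30.3 CPM (exact p = 0.19), Cd2ap at 307 ± 64.7 against 279 ± 56.4 CPM (p = 0.5) and Abca7 at 32.3 ± 18.3 against 28.0 ± 9.08 CPM (p = 0.59). At 8 or more UMIs Bin1 and Spi1 were lower in 6 of 6 libraries (exact p = 0.031 for each). At 2 or more, over 8 libraries, Bin1 (exact p = 0.016) and Spi1 (exact p = 0.047) were lower and Ptk2b higher (exact p = 0.031). Cd33 was lower in 6 of 6 libraries at 8 or more UMIs and in 7 of 8 at 2 or more (exact p = 0.031 and 0.016). With 2 or more UMIs of the list without Apoe, Bin1 and Cd33 were lower in 6 of 6 libraries (exact p = 0.031 for each), and Spi1 in 4 of 6 (exact p = 0.12). None of these p-values is adjusted, and the members' tests share the same nuclei.

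Among microglia without any UMI of the list, Cd33 was at 330 ± 51.5 and 313 ± 34.1 CPM in Ch25h+/+ and at 333 ± 46.6 and 320 ± 22.0 CPM in Ch25h-/-, without and with tau (exact permutation test within genotypes, two-sided p = 0.44, SD, n = 4). Picalm in these nuclei was at 1009 ± 269 and 883 ± 107 CPM in Ch25h+/+ and at 1025 ± 79.1 and 928 ± 156 CPM in Ch25h-/- (exact p = 0.2). Bin1 differed by -48.7 CPM (exact p = 0.064), Sorl1 by -19.0 CPM (exact p = 0.071) and Spi1 by 42.9 CPM (exact p = 0.085). The other 4 genes had an exact p of 0.5 or more.

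**Figure D4:**
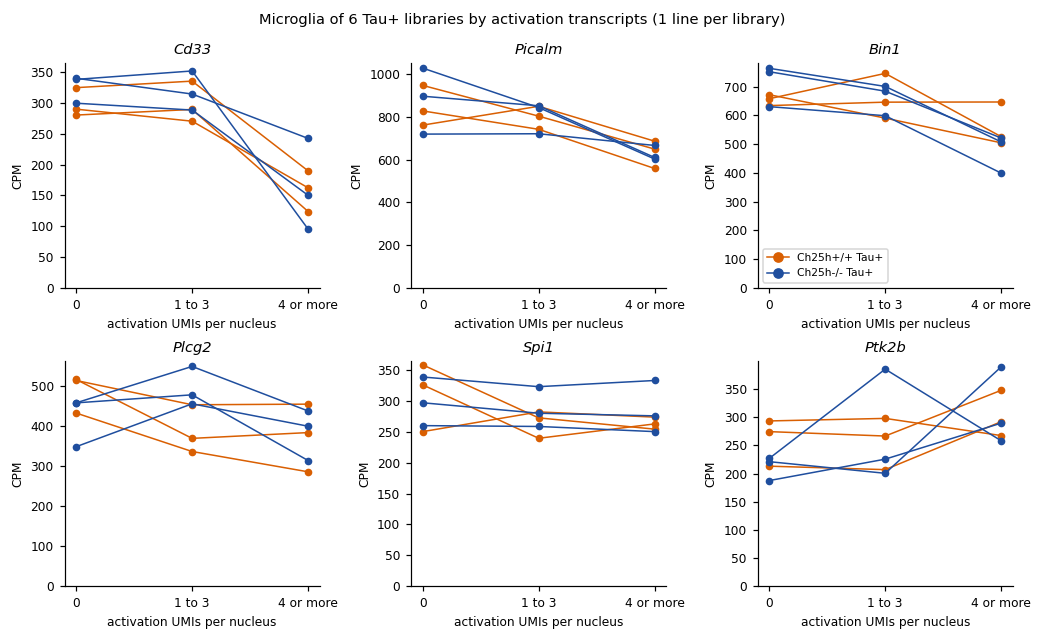
Level (CPM, linear axes from 0) of 6 genes in microglia with 0, 1 to 3 and 4 or more UMIs of 9 activation transcripts, with 1 line for each of 6 Tau+ libraries. Cd33 lies at 280 to 340 CPM in the first bin and 95.4 to 243 CPM in the last, while Ptk2b is higher in the last bin in 5 of 6 libraries.

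In neurons and macroglia no member passed the test for tau. The smallest unadjusted p-values were those of Sorl1 and Ptk2b. In CA1 pyramidal neurons of Ch25h+/+ mice Ptk2b was at 256, 240, 284 and 304 CPM without tau and at 260, 284, 282 and 260 CPM with it (log2 fold change -0.03, SE 0.09), which overlapped. It was at 246, 236, 224 and 288 CPM in Ch25h-/- Tau- and at 296, 288, 322 and 308 CPM in Ch25h-/- Tau+, so that the highest Tau- and the lowest Tau+ library were both at 288 CPM (log2 fold change 0.30, SE 0.09, adjusted p = 0.358, edgeR). Sorl1 in CA3 pyramidal neurons had a log2 fold change of 0.15 over both genotypes (SE 0.05, adjusted p = 0.349, edgeR), and in astrocytes of 0.20 (SE 0.07, adjusted p = 0.181). In oligodendrocytes Sorl1 was at 54.6, 63.4, 64.0 and 81.9 CPM in Ch25h+/+ Tau- and 59.0, 65.1, 52.6 and 51.6 CPM in Ch25h+/+ Tau+, but at 42.8, 57.4, 36.5 and 52.5 CPM in Ch25h-/- Tau- and 64.7, 70.9, 59.5 and 67.7 CPM in Ch25h-/- Tau+. The difference between these tau effects was 0.70 (log2, SE 0.20, unadjusted p = 0.0024) and did not pass over all genes (adjusted p = 1, edgeR). Free RNA could account for 21.6% of the oligodendrocyte level of Sorl1.

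Ptk2b in inhibitory neurons spread more widely than the groups explain. Over all inhibitory nuclei it ran from 4.79 to 73.6 CPM across libraries, with libraries under 10 CPM in every group and none above 27.2 CPM in Ch25h-/- Tau-. The means were 26.7 ± 21.0 and 36.0 ± 29.8 CPM in Ch25h+/+ and 14.8 ± 8.88 and 48.9 ± 28.5 CPM in Ch25h-/-, without and with tau. The log2 fold change of 1.70 within Ch25h-/- had an SE of 0.84 (adjusted p = 0.706, edgeR), and the difference of 1.31 between the tau effects an SE of 1.16. A single cluster, led by Ano1, Igfbpl1 and Col6a3, held 180 CPM of Ptk2b (95% Poisson interval 173 to 188, 1569 nuclei), against 5.59 CPM in the cluster led by Sst, 7.45 in that led by Hapln1 and 15.4 in that led by Vip. Its own level ran from 0 to 516 CPM by library, with means of 138 ± 78.1 and 142 ± 103 CPM in Ch25h+/+ and of 43.8 ± 78.6 and 299 ± 147 CPM in Ch25h-/-, without and with tau (SD, n = 4), some from 1 or 2 nuclei. The cluster gave 13 to 137 and 1 to 421 nuclei per library in Ch25h+/+ and 2 to 98 and 2 to 249 in Ch25h-/-, in the same order. Ch25h-/- Tau- replicate 4 was at 13.9 CPM from 98 nuclei, against 256 CPM from 106 nuclei in Ch25h-/- Tau+ replicate 3. In this cluster 22.9% of nuclei were marked as doublets and left out, and 26.8% of those kept came from 1 library. Without the cluster, Ptk2b was at 8.56 ± 1.70 and 7.93 ± 2.16 CPM in Ch25h+/+ and at 10.1 ± 3.65 and 7.12 ± 3.49 CPM in Ch25h-/-, without and with tau (SD, n = 4). Free RNA could account for 5.29 CPM of Ptk2b in inhibitory nuclei. This comparison was added after the data were seen.

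The spread of Cd2ap followed the library rather than the group. Over all nuclei it was at 63.1 to 84.5 CPM in 6 libraries and at 105 CPM or more in the other 10. The same 6 libraries were below the same 10 in each of the 9 classes, for example at 42.1 to 59.7 against 71.3 to 89.4 CPM in CA1 and at 76.8 to 93.7 against 111 to 135 CPM in DG granule neurons. The 6 were replicates 3 and 4 of Ch25h+/+ Tau- and Ch25h-/- Tau+, replicate 3 of Ch25h+/+ Tau+ and replicate 4 of Ch25h-/- Tau-, all on side B of the split, which also held 2 of the other 10. The median Spearman correlation of its library values between classes was 0.81 over 36 pairs of classes, against a median of 0.30 over 6258 genes with enough counts. Picalm was at 0.06, Abca7 at 0.15 and Bin1 at 0.46 by the same measure. Class pairs share their libraries, so these values carry no p.

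**Figure D5:**
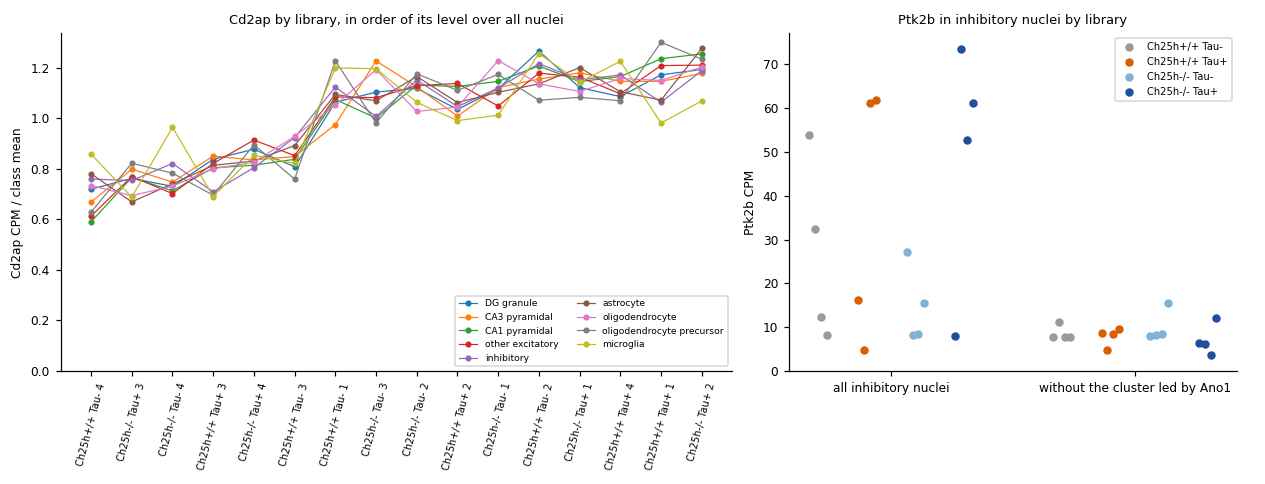
Left, Cd2ap in each library as a ratio of its class mean (axis from 0), in order of its level over all nuclei, with 1 line per class: the first 6 libraries lie below the other 10 in each class. Right, Ptk2b (CPM) in inhibitory nuclei by library, with all nuclei (4.79 to 73.6 CPM) and without the cluster led by Ano1, in which the groups overlap.

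Loss of Ch25h moved no member past the threshold. Over both tau states edgeR called 0 of 69 tests (1 at an unadjusted p under 0.05, and 0 by DESeq2), where 0.0166% of all tests were called and 2.83% had an unadjusted p under 0.05. Log2 fold changes ran from -0.35 (Abca7 in microglia) to 0.37. In Tau+ mice it called 0 of 69 (2 at an unadjusted p under 0.05, and 0 by DESeq2), where 0.00651% were called and 3.67% had such a p, and in Tau- mice 0 of 69 (2 and 0 likewise), where 0.00362% were called and 3.22% had such a p. The difference between the tau effects of the 2 genotypes was also called for 0 of 69 (2 at an unadjusted p under 0.05, and 0 by DESeq2), where 0.0% of all tests were called and 4.17% had an unadjusted p under 0.05. The tau effect on Spi1 over all nuclei was a log2 fold change of 0.95 in both genotypes (SE 0.25 in each).

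Other genes at risk loci were read from a list of 56, of which 55 are in the files. Over all nuclei 54 were tested for tau over both genotypes, and 7 passed, 6 higher and 1 lower, where 4.63% of all genes were called. The largest were Ctsh, a lysosomal protease (log2 fold change 1.28, SE 0.19), Ms4a6d, a membrane protein of myeloid cells (1.06, SE 0.23), and Blnk, an adaptor of immune receptor signalling (0.71, SE 0.14). Without and with tau, Ctsh was at 2.56 and 7.43 CPM in Ch25h+/+ and at 3.06 and 6.69 CPM in Ch25h-/-. Ms4a6d was low, at 0.691 and 1.65 CPM and at 0.753 and 1.504 CPM in the same order. Blnk was at 7.77 and 13.8 CPM and at 8.98 and 14.5 CPM. Microglia gave more of the UMIs of all nuclei with tau, as given above. The fixed mix was computed for the 9 genes only. For the listed genes over all nuclei, the part of the changed makeup was not tested. Within Ch25h-/- 1 of 54 passed, Prkd3 (0.64, SE 0.12), where 0.762% of genes were called. Prkd3 was at 11.8 and 16.9 CPM in Ch25h+/+ and at 10.9 and 17.2 CPM in Ch25h-/-, without and with tau. The difference between the tau effects was called for 0 of the 54 genes. In microglia 39 were tested and 9 passed over both genotypes, 6 higher and 3 lower, where 9.05% of all genes were called. The median log2 fold change was 0.00 in the list and -0.00 over all genes.

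Of the listed genes in microglia, Apoe, the lipid carrier, changed most (log2 fold change 2.10, SE 0.40, adjusted p = 0.00578, edgeR). Free RNA could account for 40.7 and 62.6% of its level in the Tau- groups and 9.93 and 14.7% in the Tau+ groups, Ch25h+/+ first. It was at 325 ± 207 and 2168 ± 1138 CPM in Ch25h+/+ and at 309 ± 55.9 and 899 ± 393 CPM in Ch25h-/-, without and with tau. Plekha1, a lipid-binding adaptor (0.89, SE 0.18), and Ctsb, a lysosomal protease (0.84, SE 0.19), were higher too. Within Ch25h+/+ 3 of 39 passed, where 2.31% of genes were called: Apoe (2.68, SE 0.57), Ctsh (0.76, SE 0.14) and Rin3, a regulator of endocytic traffic (-0.64, SE 0.17). Within Ch25h-/- Ctsh alone passed (0.76, SE 0.14), where 1.61% were called. Rin3 was at 198 and 131 CPM in Ch25h+/+ and at 184 and 137 CPM in Ch25h-/-, without and with tau. The difference between the tau effects was called for 0 of the 39 genes. In astrocytes 1 of 38 passed over both genotypes, where 3.27% were called: Fermt2, an integrin-binding protein, fell by 0.35 on the log2 scale (SE 0.09).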

How the data were processed

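Single-nucleus UMI counts per gene were deposited by the authors as 1 unfiltered matrix of raw counts per library (Cell Ranger 3.1.0 and genome build mm10, per the submitters' processing notes; the file headers name Cell Ranger 4). Nuclei with at least 500 UMIs, at least 300 genes and at most 5% mitochondrial UMIs were kept. They were scored for doublets with Scrublet in scanpy 1.11.5. The highest-scoring nuclei of each library were removed, at an assumed doublet rate of 0.8% per 1000 nuclei. Nuclei were clustered without the 9 genes, and a cluster was named from at least 3 markers. Of 55 clusters, 23 stayed unnamed and count only toward all nuclei (7.27 to 13.8% of each library). The nuclei of a class were added up within each library and these sums were tested with edgeR 4.0.16 (R 4.3.3; TMM scaling, filterByExpr, robust quasi-likelihood, 1 mean per group). DESeq2 1.42.0 was an alternative. The mouse is the replicate, with 4 libraries a group. Replicate numbers follow accession order. The free RNA profile came from barcodes under 100 UMIs. For the levels by class it was scaled with marker lists of other classes. The list with the lowest ratio of class level to profile level set the scale. Shares were capped at 100% and are upper limits. The edgeR step was run on simulated counts for microglia and all nuclei, and the other steps were not checked in this way.

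The 9 genes, the marker and risk-locus lists and the tests were chosen with earlier results of these data known. The rule for named genes took the 9 genes in every class, up to 3 called genes of the risk-locus list per class and contrast by size of the log2 fold change, and for each of the 9 the 2 genes most like it over the classes. The fixed mix of classes, the activation bins and the comparison without an inhibitory cluster were added after the data were seen.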

Additional observations from a re-analysis of the deposited data

Results flagged for a closer look

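Of 72 groups of 4 libraries examined, 4 held a library whose gap to the nearest of the others was over 0.829 of the whole range. Chance gives about 1 in 20 such groups. Spi1 in microglia was at 390 CPM in Ch25h+/+ Tau+ replicate 3, against 270 to 278 CPM in the other libraries of that group. In the same library Bin1 in oligodendrocytes was at 953 CPM, against 784 to 787 CPM. This library also had the second lowest share of microglia with 4 or more activation UMIs among Tau+ libraries, 3.80%. Cd2ap over all nuclei was at 76.2 CPM in Ch25h-/- Tau- replicate 4, against 107 to 109 CPM in the others. Picalm over all nuclei was at 100.5 CPM in Ch25h+/+ Tau- replicate 3, against 102.5 to 102.7 CPM, a gap of about 2 CPM in a narrow group.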

How the results depend on the processing

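Of the members' 69 tests, the count called for tau over both genotypes was 3, and became 5 with DESeq2, 5 with at least 1000 UMIs per nucleus, 5 with the split as a block, 1 on side A alone, 2 on side B alone and 1 to 5 with 1 library left out. For tau in Ch25h+/+ it was 0, and became 1 with DESeq2, 1 with at least 1000 UMIs, 1 on side A, 1 on side B and 0 to 2 with 1 library left out, where 2 came without Ch25h+/+ Tau+ replicate 3. For tau in Ch25h-/- it was 0, and became 2 with DESeq2, 1 with the split as a block and 1 on side B. The cause was not tested. Of single values, Spi1 in microglia had a log2 fold change of -0.0249 with at least 1000 UMIs, and of -0.0243 (without Ch25h+/+ Tau+ replicate 3) to 0.0755 with 1 library left out. By activation UMIs, Sorl1 became -0.811 CPM and Abca7 1.75 CPM with the list without Apoe and 2 or more UMIs together, and Abca7 2.49 CPM at 8 or more UMIs. The fixed mix turned the tau difference over all nuclei to -2.11 CPM for Picalm, -0.694 for Plcg2, 13.3 for Ptk2b and -0.431 for Cd33. Fits of only the groups compared were made for the 4 contrasts of 2 groups. No paired analysis was possible because the replicate numbers follow accession order and the labels pair no mice across groups; the numbers do fall on the 2 sides of the split, which was fitted as a block. Low counts limit Spi1 and Cd33 in the 8 tested classes other than microglia, with 1 to 22 UMIs per class in all.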
